A study of Mus musculus with 6 samples.

Results

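Antioxidant and glutathione genes encode the enzymes that remove superoxide and peroxides, make and recycle glutathione, and keep these reactions supplied with reducing power. The group was a list of 38 mouse genes picked by name from these pathways, and 37 of them were among the 16640 genes measured. *Gpx8* was not analysed here. Superoxide dismutases turn superoxide into hydrogen peroxide, which catalase degrades without a cofactor to recycle. Glutathione peroxidases and peroxiredoxins reduce peroxides with electrons that come from NADPH by way of glutathione or thioredoxin. The transcription factor NRF2 (encoded by *Nfe2l2*), which KEAP1 holds back in unstressed cells, induces many of these genes under oxidative or electrophilic stress. Pancreatic β-cells are known for low catalase and glutathione peroxidase compared with the liver.

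Bulk RNA was sequenced from MIN6, a mouse β-cell line derived from an insulinoma, to compare transcripts of cells with and without activation of the endogenous *Thada* gene. There were 3 control libraries and 3 *Thada*-activated libraries, each numbered replicate 1, 2 or 3. The *Thada*-activated cells were a stable line made with the dCas9-SAM system, in which a Cas9 without nuclease activity, fused to the activator VP64, and a guide RNA that recruits MS2-P65-HSF1 turn on a gene at its promoter. They had received a dCas9-VP64 lentivirus under puromycin selection and then a guide lentivirus under G418 selection. The control cells carried dCas9 and non-targeting guide lentiviruses, so that lentiviral transduction and dCas9 were common to both groups. Library totals were 17272834, 17166511 and 17689611 counts in control replicates 1, 2 and 3, and 17727004, 17385036 and 17224631 counts in the *Thada*-activated replicates. Genes with no more than 3 counts in a library, which is 0.169 to 0.175 on the library-scaled CPM scale, are described as at the floor, and that limit covers counting error only.

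Levels are given in FPKM, the reads on a gene scaled by its length and by library size, which allows different genes to be compared. The values of a gene are listed for replicates 1, 2 and 3 in that order. Differences are log2 fold changes fitted to the counts, with standard errors (SE). A gene passed the test when its adjusted p was under 0.05, over all 12516 genes tested, and its fold change exceeded 1.5. The study's reporting summary says in general that in vitro work was repeated independently, but neither it nor the labels say what the numbers of these libraries stand for. The p-values measure only the spread between these libraries, which may be technical. In bulk RNA, fewer cells of a type and less RNA per cell cannot be told apart.

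*Thada* itself served as the check of the labels. It was measured at 3.62, 3.90 and 2.34 FPKM in control libraries and 7.48, 7.32 and 6.85 FPKM in *Thada*-activated libraries. Every activated library lay above every control library, and both groups were lowest in replicate 3. The fitted log2 fold change was 1.13, SE 0.22, with an adjusted p of 1.00 by edgeR's quasi-likelihood test (Benjamini-Hochberg). With the replicate number as a block it was 1.15, SE 0.10, and the edgeR adjusted p was 0.00041.

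The β-cell label was checked against 9 marker genes, all of which were measured. Their summed level was 277688, 256791 and 376567 FPKM in control libraries and 270622, 263468 and 298710.5 FPKM in *Thada*-activated libraries, and *Ins2* was the most abundant at a mean of 225648 FPKM. The glucose transporter gene *Slc2a2* was close to absent, at 0.02 to 0.21 FPKM, and was at the floor in 4 libraries. Lists for other pancreatic cells were also summed. The α-cell list (3 of 4 measured, led by *Ttr*) summed to 1232, 1149 and 626 FPKM in control and 1212, 1203 and 758 FPKM in activated libraries. The δ-cell list (2 genes, led by *Sst*, with *Hhex* at the floor) summed to 349.7, 299.9 and 156 FPKM and 325, 295 and 126 FPKM. *Ppy*, the PP-cell gene, stood at 60.5, 57.2 and 86.7 FPKM and 69.9, 66.5 and 114 FPKM. The duct list (3 genes, led by *Krt7* at a mean of 97.3 FPKM, with *Sox9* at the floor) summed to 104, 107 and 50.6 FPKM and 129, 129.9 and 68.3 FPKM. For these lists replicate 3 of either condition lay apart from the other replicates, with sums below them for the α-cell, δ-cell and duct lists and above them for *Ppy*. The α-cell sum was carried by *Ttr*, and its member *Irx2* went the other way. *Irx2* stood at 1.51, 1.20 and 1.89 FPKM in control and 1.18, 1.64 and 2.01 FPKM in activated libraries. The β-cell sum was also highest in replicate 3, but *Ins1* and *Ins2* carried that sum, and *Iapp*, *Mafa*, *Pdx1*, *Nkx6-1* and *Slc30a8* were lower in replicate 3 of each condition than in all other libraries.

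The remaining lists were low. The acinar list (2 of 6 measured, *Amy2a5* and *Ctrb1*, both at the floor) summed to at most 0.08 FPKM in any library. The fibroblast list (4 genes, led by *Col1a1*) summed to 0.55 to 1.47 FPKM. The macrophage and blood list (4 of 5 measured, led by *Cd68*, with *Lyz2* and *Hbb-bs* at the floor) summed to 1.06 to 1.70 FPKM, and the endothelial list (3 genes, led by *Pecam1*, with *Kdr* and *Cdh5* at the floor) to 0.11 to 0.40 FPKM. Both the fibroblast and the endothelial sum were higher in replicate 3 of each condition than in all other libraries. In control and activated replicate 3 the fibroblast sums were 1.16 and 1.47 FPKM and the endothelial sums 0.40 and 0.35 FPKM.

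The replicate number separated the libraries more than the condition did. A principal component that held 85.02% of the variance placed control replicate 3 at 48.0 and activated replicate 3 at 43.2, with the other 4 libraries between -23.3 and -21.9. *Ins2* alone took 6.37%, 5.65% and 10.2% of the counts in control libraries and 6.44%, 6.29% and 8.36% in *Thada*-activated libraries, again highest in replicate 3 of each condition. The conditions are therefore compared without and with the replicate number as a block, and the replicates are compared in their own right.

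As a group, the antioxidant genes were well expressed in MIN6 cells. They took 0.285%, 0.287% and 0.324% of all counts in control libraries and 0.304%, 0.298% and 0.344% in *Thada*-activated libraries. The median member had a mean level of 33.5 FPKM over the 6 libraries, against 6.51 FPKM for the 16633 genes detected, and 13 members lay above the 90th percentile of those genes. The members fell into 9 strong genes at 100 FPKM or more, 25 of intermediate level and 3 below 1 FPKM. The 6 strongest genes, *Gstp1*, *Sod1*, *Prdx4*, *Gpx4*, *Gstm1* and *Prdx1*, made up 58.0% of the summed FPKM of the group. The order depended on the replicates, since *Gstm1* averaged 97.8 FPKM in replicates 1 and 2, below *Prdx2*, *Txn1* and *Prdx5*, and 276 FPKM in replicate 3. There were 8 genes at 100 FPKM or more in replicates 1 and 2 and 10 in replicate 3.

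By role, the peroxiredoxins with sulfiredoxin were the most abundant class, with a mean summed level of 898 FPKM or 30.7% of the group. Glutathione transferases followed at 686 FPKM (23.5%), then superoxide dismutases with catalase at 409.8 FPKM (14.0%) and the thioredoxin and glutaredoxin system at 375 FPKM (12.9%). Glutathione peroxidases summed to 309 FPKM (10.6%). The remaining classes were smaller, with 90.9 FPKM (3.11%) for the NRF2 pathway and its inducible enzymes, 83.8 FPKM (2.87%) for glutathione synthesis and recycling, and 67.1 FPKM (2.30%) for the NADPH suppliers *G6pdx* and *Pgd*. The order of some classes depended on the library. In activated replicate 2 the thioredoxin and glutaredoxin system (378 FPKM) lay above the superoxide dismutases with catalase (369.9 FPKM). In both replicate 3 libraries glutathione synthesis (93.6 and 90.3 FPKM) lay above the NRF2 class (73.9 and 80.3 FPKM), and in activated replicate 3 the glutathione peroxidases (395 FPKM) lay above the thioredoxin and glutaredoxin system (364 FPKM). The thioredoxin and glutaredoxin sum varied least relative to its mean, from 364 to 384 FPKM.

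**Figure D1:**
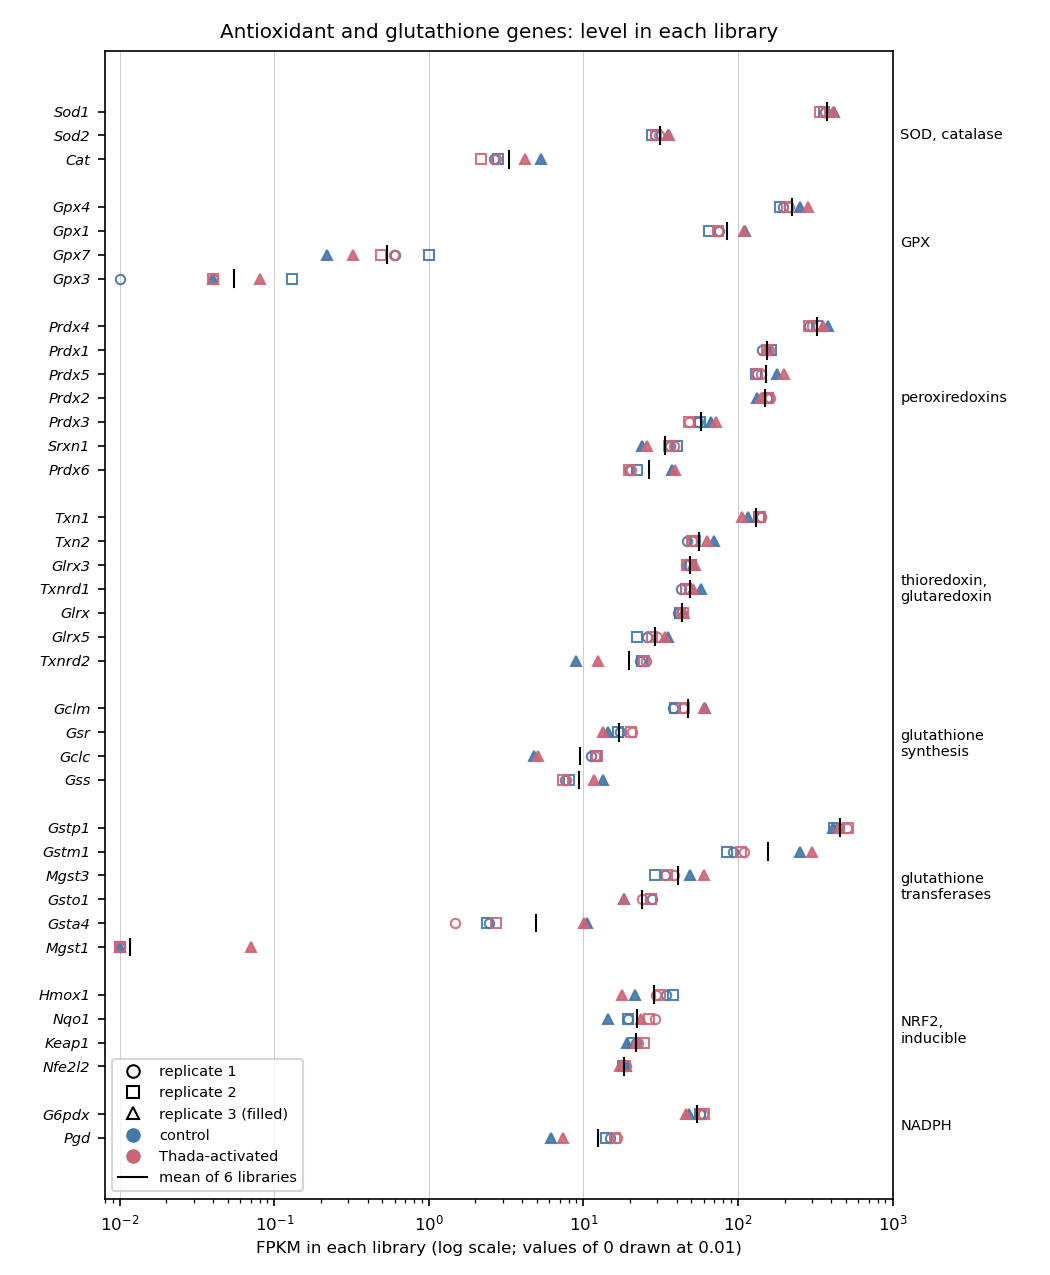
Level of each of the 37 measured antioxidant and glutathione genes in FPKM on a log scale, grouped by role, with circles, squares and filled triangles for replicates 1, 2 and 3, control in blue, *Thada*-activated in red, a black bar at the mean of the 6 libraries and values of 0 drawn at 0.01 FPKM. *Gstp1*, *Sod1* and *Prdx4* lie at the right, *Gpx7*, *Gpx3* and *Mgst1* below 1 FPKM, and the triangles of many genes stand apart from the other symbols.

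Superoxide dismutase and catalase transcripts were unequal. *Sod1*, the cytosolic copper-zinc enzyme, was measured at 363, 358 and 417 FPKM in control libraries and 364, 338 and 409.9 FPKM in *Thada*-activated libraries, and made up 91.5% of the class. *Sod2*, the mitochondrial manganese enzyme, ranged from 27.6 to 36.0 FPKM. *Cat*, the peroxisomal catalase that degrades hydrogen peroxide without a cofactor to recycle, stood at 2.64, 2.81 and 5.33 FPKM and 2.73, 2.16 and 4.20 FPKM. *Cat* was below the median detected gene (6.51 FPKM) in every library, was highest in replicate 3 of each condition, and its conditions overlapped.

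The glutathione peroxidases ranged from strong to undetected. *Gpx4*, which reduces lipid hydroperoxides in membranes, was measured at 194, 187 and 251 FPKM in control and 213, 209 and 286 FPKM in activated libraries and made up 72.4% of the class. *Gpx1*, the main cytosolic enzyme, stood at 75.0, 64.5 and 111 FPKM and 74.0, 73.8 and 109 FPKM. Both genes were highest in replicate 3 of each condition. *Gpx7*, an enzyme of the endoplasmic reticulum (ER), was near absent at 0.60, 1.00 and 0.22 FPKM and 0.59, 0.49 and 0.32 FPKM, from 11, 18 and 4 counts in control and 11, 9 and 6 counts in activated libraries. *Gpx3*, the secreted plasma enzyme, had 0, 3 and 1 counts in control and 1, 1 and 2 counts in activated libraries. All 6 libraries were at the floor for *Gpx3*, so no fold change is given.

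The peroxiredoxins were all expressed, with the ER member leading. *Prdx4*, which removes hydrogen peroxide in the ER, was measured at 287, 325 and 380.2 FPKM in control and 302, 286 and 356 FPKM in activated libraries. *Prdx1*, a cytosolic peroxiredoxin, stood at 144, 164 and 159 FPKM and 159, 154 and 152 FPKM, and *Prdx5*, found in mitochondria, peroxisomes and cytosol, at 133, 129.8 and 178 FPKM and 140.2, 132 and 198 FPKM. *Prdx4* and *Prdx5* were highest in replicate 3 of each condition, whereas the 6 values of *Prdx1* were interleaved. The cytosolic *Prdx2* ranged from 132 to 161 FPKM and the mitochondrial *Prdx3* from 48.4 to 71.7 FPKM. *Prdx6*, which also acts on phospholipid peroxides, had 19.6, 22.2 and 37.3 FPKM and 20.4, 19.6 and 39.2 FPKM. *Srxn1*, the sulfiredoxin that restores overoxidised peroxiredoxins, had 36.5, 40.6 and 23.9 FPKM and 38.2, 35.9 and 25.6 FPKM. In replicate 3 of each condition *Prdx6* was at its highest and *Srxn1* at its lowest, with no overlap with the other replicates.

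In the thioredoxin system the cytosolic thioredoxin was stronger than the mitochondrial form. *Txn1*, the cytosolic thioredoxin, ranged from 106 to 141 FPKM and its reductase *Txnrd1* from 42.7 to 57.4 FPKM. The mitochondrial thioredoxin *Txn2* ranged from 47.0 to 70.1 FPKM, and its reductase *Txnrd2* stood at 23.2, 24.0 and 8.98 FPKM in control and 25.3, 24.6 and 12.4 FPKM in activated libraries. *Txnrd2* was lowest in replicate 3 of each condition. The glutaredoxins ranged from 41.2 to 44.6 FPKM for *Glrx*, from 46.1 to 52.7 FPKM for *Glrx3* and from 22.2 to 35.4 FPKM for *Glrx5*, which act in deglutathionylation and iron-sulfur cluster handling.

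Glutathione synthesis was led by a regulatory subunit. *Gclc*, the catalytic subunit of glutamate-cysteine ligase and the rate-limiting enzyme, stood at 11.3, 12.02 and 4.75 FPKM in control and 11.9, 12.2 and 5.09 FPKM in activated libraries, while the modifier subunit *Gclm* ranged from 37.9 to 61.0 FPKM. *Gss*, glutathione synthetase, stood at 7.62, 8.10 and 13.4 FPKM and 7.74, 7.37 and 11.7 FPKM. *Gsr*, which returns oxidised glutathione to its reduced form, stood at 17.1, 16.6 and 14.4 FPKM and 20.6, 20.4 and 13.4 FPKM. Replicate 3 of each condition was the highest for *Gss* and the lowest for *Gclc* and *Gsr*.

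The glutathione transferases spanned the widest range. *Gstp1*, the strongest member of all, was measured at 452, 416 and 413 FPKM in control and 509, 515 and 453 FPKM in activated libraries. Every activated library lay above every control library, with activated replicate 3 only just above control replicate 1. *Gstp1* was also the only member with estimated counts that were not whole numbers. Its near copy *Gstp2* was at a mean of 0.327 FPKM, and how reads that match both were divided is not given in the sources used here.

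Among the other transferases, *Gstm1* stood at 93.0, 84.3 and 251 FPKM in control and 109, 105 and 302 FPKM in activated libraries. The microsomal *Mgst3* stood at 33.6, 28.8 and 48.9 FPKM and 38.5, 34.7 and 60.4 FPKM, and *Gsta4*, which conjugates the lipid peroxidation product 4-hydroxynonenal, at 2.46, 2.36 and 10.6 FPKM and 1.48, 2.72 and 10.1 FPKM. All of these were highest in replicate 3 of each condition. *Gsto1* ranged from 18.2 to 27.8 FPKM. *Mgst1*, the major microsomal transferase of liver, had 0 counts in 5 libraries and 1 count in activated replicate 3, all at the floor, so that a level of up to 0.175 CPM was not detectable.

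Of the NRF2 pathway, *Nfe2l2* stood at 18.3, 17.9 and 18.9 FPKM in control and 18.8, 18.6 and 17.1 FPKM in activated libraries, and *Keap1*, its repressor, at 21.9, 21.1 and 19.0 FPKM and 22.4, 24.5 and 21.9 FPKM. Neither gene separated the replicates on the FPKM scale, while on the TPM scale both were lowest in replicate 3 of each condition without overlap. *Hmox1*, which degrades haem, stood at 34.4, 38.0 and 21.6 FPKM and 29.3, 31.1 and 17.8 FPKM, lowest in replicate 3 of each condition. *Nqo1*, a quinone reductase induced by NRF2, stood at 19.3, 19.5 and 14.4 FPKM and 29.2, 26.6 and 23.4 FPKM, with every activated library above every control library. For NADPH supply, *G6pdx*, which opens the pentose phosphate pathway, ranged from 46.2 to 60.6 FPKM. *Pgd*, the next NADPH-forming enzyme of that pathway, stood at 14.9, 14.0 and 6.18 FPKM and 16.4, 15.9 and 7.35 FPKM, lowest in replicate 3 of each condition.

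*Thada*-activated and control cells were then compared. No antioxidant gene passed the test. Of the 35 members tested (*Gpx3* and *Mgst1* were left out by the filter on low counts), edgeR's quasi-likelihood test without a block called 0, beside 0% of all tested genes. At an unadjusted p under 0.05 there was 1 member, *Nqo1*, and 101 of all tested genes. DESeq2 called 0 members and 5 of all genes, and limma on log2 FPKM called 0 of either. The members' fitted log2 fold changes had a median of 0.02, with 18 above and 17 below 0, against -0.00 for all tested genes.

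With the replicate number as a block, edgeR called 0 of 35 members beside 0.152% of all tested genes (19 genes), with 7 members at an unadjusted p under 0.05 beside 10.4% of all tested genes. DESeq2 with the block called 0 members and 18 of all genes. Without the fold threshold, the blocked edgeR fit gave 1 member with an adjusted p under 0.05, *Nqo1*, beside 0.224% of all tested genes (28 genes). The biological coefficient of variation was 0.253 without the block and 0.0630 with it.

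*Nqo1* (chr8:107388225-107403206, GRCm38, minus strand) showed the largest difference between conditions in the group. From the counts of 465, 463 and 354 in control and 723, 647 and 574 in activated libraries, the fitted log2 fold change was 0.57, SE 0.16, with an adjusted p of 1.00 by edgeR's quasi-likelihood test (Benjamini-Hochberg). In the fit with the block it was 0.57, SE 0.08, with an edgeR adjusted p of 0.0103, and the fold change of 1.49 was just under the threshold of 1.5. The log2 differences of the 3 numbered pairs were 0.58, 0.47 and 0.68, all toward higher levels in activated cells. The call depended on which libraries entered the blocked fit. With both libraries of number 2 left out the log2 fold change was 0.63 and the gene passed (edgeR adjusted p = 0.0117), whereas with number 1 left out it was 0.57 and did not (edgeR adjusted p = 0.0146, over all alternatives 9.35e-07 to 1.00).

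Besides *Nqo1*, *Gstp1* and *Keap1* had no overlap between conditions, which made 3 of 35 members beside 5.02% of all tested genes. All 3 were higher in activated libraries. The gap for *Keap1* was 0.01 FPKM, between 21.91 FPKM in control replicate 1 and 21.92 FPKM in activated replicate 3. On the TPM scale 3 members again had no overlap, beside 4.97% of all tested genes, but these were *Nqo1*, *Gpx4* and *Sod2*.

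**Figure D2:**
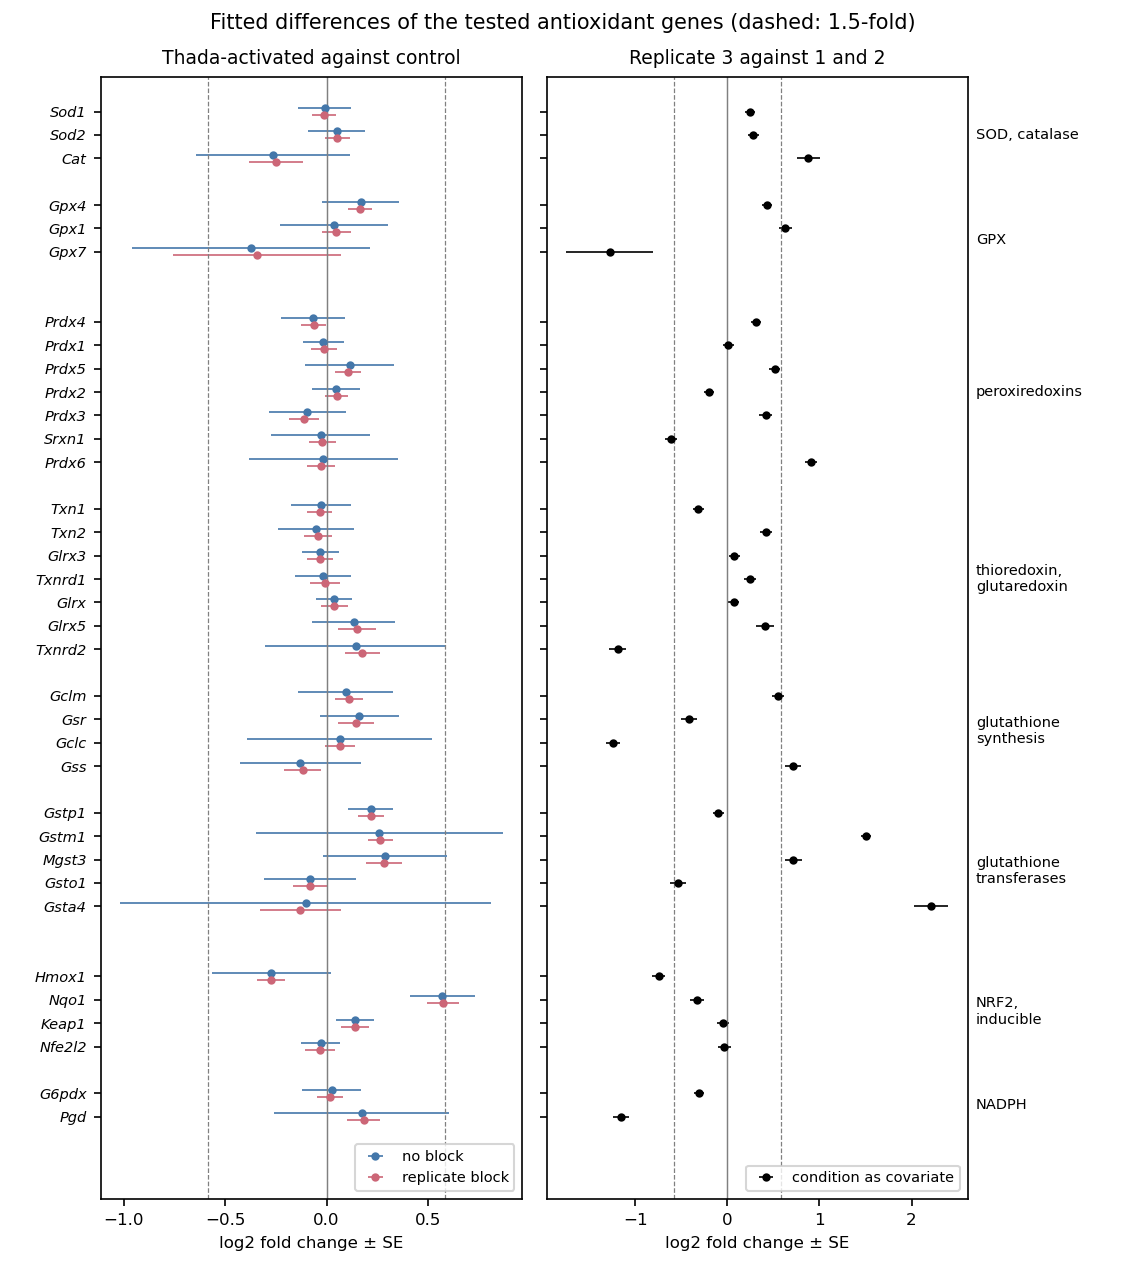
Fitted log2 fold changes with their standard errors for the 35 tested antioxidant genes by role, where the left panel plots *Thada*-activated over control cells without (blue) and with (red) the replicate number as a block, the right panel replicate 3 over replicates 1 and 2 with condition as a covariate, and dashed lines mark a fold change of 1.5. *Nqo1* lies farthest to the right in the left panel, just inside the line, and the bars of many genes shorten with the block, while 13 genes lie beyond the lines in the right panel.

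The other classes differed less between conditions, and all their adjusted p-values were 1.00 by edgeR's quasi-likelihood test without the block. The member with the largest difference in each class in that fit is given with its value in the blocked fit. *Cat* had a log2 fold change of -0.26, SE 0.38 (blocked -0.25, SE 0.13) and *Gpx7* of -0.37, SE 0.59 (blocked -0.34, SE 0.42). *Prdx5* had 0.12, SE 0.22 (blocked 0.11, SE 0.06) among the peroxiredoxins, and *Txnrd2* had 0.14, SE 0.45 (blocked 0.18, SE 0.09) in the thioredoxin system. *Gsr* had 0.16, SE 0.19 (blocked 0.14, SE 0.09) in glutathione synthesis, *Mgst3* had 0.29, SE 0.31 (blocked 0.28, SE 0.09) among the transferases, and *Pgd* had 0.17, SE 0.43 (blocked 0.18, SE 0.08) in NADPH supply. In all of these the control and activated libraries overlapped, and the fitted replicate 3 difference was larger in size than the fitted condition difference. Single libraries did not always follow this. For *Gsr* the log2 difference of replicate 3 in control libraries was -0.21, beside condition differences of 0.25 and 0.30 in pairs 1 and 2.

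With the block, the members closest to *Nqo1* by p-value were transferases and *Hmox1*. By size of log2 fold change *Gpx7* (-0.34, SE 0.42) was closer. Log2 fold changes were 0.27, SE 0.06 for *Gstm1* (edgeR adjusted p = 0.122), 0.22, SE 0.06 for *Gstp1* (0.255) and 0.28, SE 0.09 for *Mgst3* (0.291), all above 0 in each numbered pair. *Hmox1* had -0.27, SE 0.07 (edgeR adjusted p = 0.174) and was below 0 in each pair. *Gpx4* had 0.17, SE 0.06 (edgeR adjusted p = 0.358). Over the group, 14 of 35 members had the same direction in all 3 pairs, while 33.0% of all tested genes did, and the median log2 differences of the pairs were 0.05, 0.05 and 0.01.

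Replicates 1 and 2 alone were compared as well, a fit added after the libraries had been examined. It called 0 of 35 members with the fold threshold, beside 0.545% of all tested genes, with 11 members at an unadjusted p under 0.05 beside 15.8% of all tested genes. Without that threshold 7 members had an edgeR adjusted p under 0.05, beside 3.41% of all tested genes. *Nqo1* (log2 fold change 0.53), *Gsr* (0.28), *Gstm1* (0.27), *Gstp1* (0.24) and *Gclm* (0.20) were higher in activated cells, while *Hmox1* (-0.26) and *Prdx3* (-0.22) were lower. Adding the block to these 4 libraries left 5 members under that adjusted p, *Nqo1*, *Gsr*, *Gstm1*, *Gstp1* and *Hmox1*, beside 366 of all 12480 genes tested there. In replicate 3 *Gsr*, *Gclm* and *Prdx3* leaned the other way, with pair differences of -0.14, -0.05 and 0.09.

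Replicate 3 differed from replicates 1 and 2 in many antioxidant genes. With condition as a covariate, 7 of 35 members were higher in replicate 3, beside 15.7% of all tested genes, and 6 were lower, beside 15.4%. The 13 members were 37.1% of those tested, against 31.1% of all tested genes. Without the fold threshold 29 members had an edgeR adjusted p under 0.05 (17 higher, 12 lower), beside 68.6% of all tested genes. On the FPKM scale 30 of 35 members had no overlap between replicate 3 and the other libraries, beside 71.4% of all tested genes, and 25 had none on the TPM scale, beside 69.9%. The median log2 difference was 0.07, against 0.00 over all tested genes, and 33 of 35 members had the same direction in both conditions, the exceptions being *Prdx1* and *Nfe2l2*. The balance depended on the scale. On TPM the median of all tested genes was -0.18 in replicate 3, and 4 members lay more than 1.5-fold above and 8 below the other replicates. Relative to that median 7 lay above and 6 below, the same counts as on FPKM.

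The higher members were 3 transferases, 3 enzymes of peroxide removal and *Gss* of glutathione synthesis. *Gsta4* had the largest difference, a log2 difference of 2.21, SE 0.19 and 4.63-fold (edgeR quasi-likelihood test, Benjamini-Hochberg adjusted p = 1.32e-07). *Gstm1* followed at 1.51, SE 0.06 and 2.84-fold (edgeR adjusted p = 8.78e-11). *Mgst3* was also higher, by 0.72, SE 0.09 (edgeR adjusted p = 7.65e-06). These made 3 of the 5 transferases tested, beside 15.7% of all tested genes called higher. *Gsto1* had -0.53 and missed only the fold threshold (edgeR adjusted p = 8.13e-05), while *Gstp1* had -0.10 and did not pass (edgeR adjusted p = 0.144).

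*Prdx6* was higher in replicate 3 by 0.90, SE 0.06 (edgeR adjusted p = 2.24e-08) and *Cat* by 0.88, SE 0.13 (edgeR adjusted p = 2.29e-05). For *Cat* the replicate 3 levels remained below the median detected gene. *Gpx1* was higher by 0.63, SE 0.07 (edgeR adjusted p = 1.69e-06), close to the fold threshold, and no longer passed it without control replicate 2 (0.56) or control replicate 3 (0.57). *Sod1*, *Sod2*, *Gpx4*, *Prdx3*, *Prdx4* and *Prdx5* had log2 differences from 0.24 to 0.51, all with edgeR adjusted p-values under 0.05 and folds under 1.5.

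The lower members included mitochondrial thioredoxin reductase, the rate-limiting enzyme of glutathione synthesis and an NADPH supplier. *Gclc* had a log2 difference of -1.24, SE 0.08, or 2.36-fold lower (edgeR quasi-likelihood test, Benjamini-Hochberg adjusted p = 6.34e-09). *Txnrd2* had -1.19, SE 0.09 (edgeR adjusted p = 3.1e-08) and *Pgd* -1.16, SE 0.09 (edgeR adjusted p = 3.49e-08). In each of these the replicate 3 libraries of both conditions were below all 4 others. *Hmox1* had -0.75, SE 0.07 (edgeR adjusted p = 4.72e-07). *Srxn1* had -0.61, SE 0.07 (edgeR adjusted p = 1.21e-06) and no longer passed the fold threshold without control replicate 2 (-0.58) or control replicate 3 (-0.55).

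*Gpx7* was called lower at -1.28, SE 0.47 (edgeR adjusted p = 0.0260) from 4 to 18 counts a library. It lost the call without control replicate 2 (-1.04, edgeR adjusted p = 0.0859), without control replicate 3 (-0.73, edgeR adjusted p = 0.358) and by the DESeq2 Wald test (-1.28, adjusted p = 0.147). It also fell short of the fold threshold by limma on log2(FPKM + 1) (-0.39). Over all alternatives its adjusted p ran from 0.0112 to 0.358. Calls were gained for *Gclm* without activated replicate 3 (0.68), for *Gsr* without control replicate 3 (-0.62) and for *Gsto1* without activated replicate 1 (-0.59).

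Glutathione synthesis held calls in both directions in replicate 3. Within glutathione synthesis, *Gclc* was lower and *Gss* higher by 0.71, SE 0.09 (edgeR adjusted p = 4.72e-06), while *Gclm* had 0.55, SE 0.06 with a fold of 1.47, just under the threshold. The ratio of the 2 ligase subunits was not tested. Of the thioredoxin reductases, the mitochondrial *Txnrd2* was lower and the cytosolic *Txnrd1* had 0.24, SE 0.07, which became 0.10 without control replicate 3 (edgeR adjusted p = 0.173), with *Txn1* at -0.32 and *Txn2* at 0.42. *Pgd* passed the test and *G6pdx*, at -0.31, SE 0.06, did not pass the fold threshold. *Nfe2l2* (-0.03, SE 0.07) and *Keap1* (-0.05, SE 0.06) did not pass in replicate 3 (edgeR adjusted p = 0.697 and 0.511). *Nqo1* (-0.33, SE 0.08) missed only the fold threshold (edgeR adjusted p = 0.00186). The sign differed between the FPKM and TPM scales for *Prdx1*, *Glrx* and *Glrx3*, whose fitted log2 differences were 0.01, 0.07 and 0.07.

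**Figure D3:**
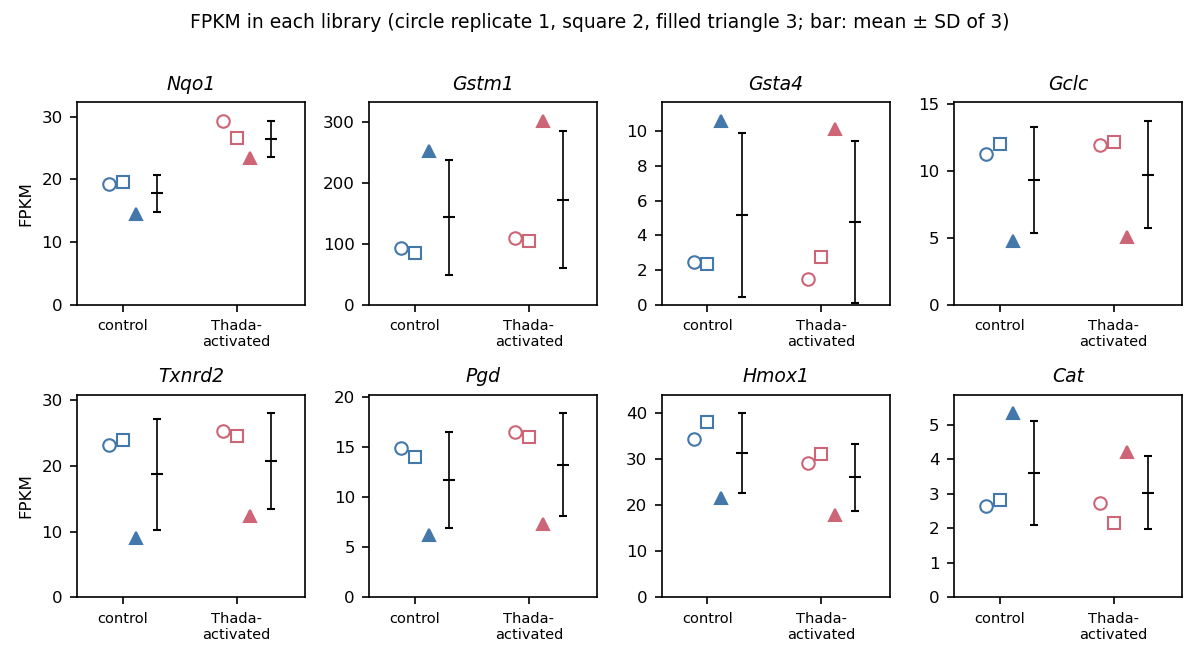
FPKM of 8 antioxidant genes in each library, with control in blue, *Thada*-activated in red, circles, squares and filled triangles for replicates 1, 2 and 3, and a bar at the mean and SD of the 3 libraries of a condition. Only *Nqo1* separates the conditions, with control libraries from 14.4 to 19.5 FPKM and activated libraries from 23.4 to 29.2 FPKM, while in the other panels replicate 3 lies apart in both conditions.

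Markers of cell identity moved with replicate 3 in the same fit. Among the β-cell genes *Ins1* was higher by 0.82, SE 0.07, whereas *Pdx1* (-1.03, SE 0.06), *Slc30a8* (-0.96, SE 0.09) and *Mafa* (-0.61, SE 0.09) were lower. *Ins2* (0.57, SE 0.09), *Iapp* (-0.58, SE 0.09), *Nkx6-1* (-0.33, SE 0.06) and *G6pc2* (-0.26, SE 0.11) did not reach the fold threshold. Of the other lists *Ppy* was higher by 0.70, SE 0.08, while *Sst* had -1.14, SE 0.08, *Ttr* -0.80, SE 0.07 and *Krt7* -0.99, SE 0.06. The part of these differences in the antioxidant results was not tested.

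Exons of some members overlap those of genes on the opposite strand, and whether the counting used strand is not given in the sources used here. *Gss* overlaps *Acss2*, which had a replicate 3 log2 difference of 0.07. *Prdx2* overlaps *Junb* (0.85) and *Rnaseh2a* (0.67), *Prdx5* overlaps *Trmt112* (0.21), and *G6pdx* overlaps *Ikbkg* (0.19). Reads of these pairs cannot be told apart without strand.

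A list of 84 other redox genes placed the members in context, and 81 of these were measured. Several were stronger than most members, with the ferritin chains *Ftl1* at a mean of 1059 FPKM and *Fth1* at 447 FPKM, *Akr1a1* at 342 FPKM and the NRF2 activator *Sqstm1* at 300.2 FPKM. In contrast *Gpx2*, *Gpx6*, *Gsta3*, *Mgst2*, *Ggt1* and *Aldh1a1* were at the floor in all 6 libraries. These genes were singled out after their values were seen. Of the 67 tested, edgeR called 0 between conditions without the block, with 0 at an unadjusted p under 0.05, and 0 with the block, with 8 at an unadjusted p under 0.05 beside 10.4% of all tested genes. DESeq2 and limma also called 0. The median log2 fold change was 0.05, against -0.00 for all tested genes.

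The 3 largest differences between conditions among these genes, in the fit without the block, were in *Msrb2*, *Msra* and *Txnip*. *Msrb2*, a mitochondrial methionine sulfoxide reductase, stood at 4.79, 5.47 and 3.20 FPKM in control and 6.63, 6.28 and 4.02 FPKM in activated libraries, with a log2 fold change of 0.34, SE 0.32. *Msra*, another methionine sulfoxide reductase, ranged from 2.20 to 8.67 FPKM (0.25, SE 0.51). *Txnip*, the thioredoxin-binding protein that glucose induces in β-cells, stood at 9.36, 9.98 and 116 FPKM and 10.6, 10.01 and 143 FPKM (0.24, SE 1.44). In each the conditions overlapped and replicate 3 lay apart, low for *Msrb2* and *Msra* and far above the others for *Txnip*. None passed with edgeR's quasi-likelihood test, at an adjusted p of 1.00. With the block they had 0.34, SE 0.15, 0.30, SE 0.15 and 0.16, SE 0.07, and did not pass (edgeR adjusted p = 0.447, 0.531 and 0.462). In that fit *Txnip* was no longer among the 3 largest, since *Chac1* had -0.22.

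In replicate 3, 27 of these 67 genes passed (14 higher and 13 lower), which was 40.3% beside 31.1% of all tested genes, with a median log2 difference of 0.01. *Txnip* was 12.93-fold higher, a log2 difference of 3.69, SE 0.06 (edgeR quasi-likelihood test, Benjamini-Hochberg adjusted p = 1.73e-14). The transferase *Gstt1*, at 3.69, 4.56 and 21.3 FPKM in control and 4.85, 3.52 and 23.5 FPKM in activated libraries, was higher by 2.45, SE 0.13 (edgeR adjusted p = 1.17e-09). Both were at their highest in replicate 3 of each condition with no overlap. *Slc7a11*, the cystine importer that feeds glutathione synthesis, stood at 1.22, 1.44 and 0.47 FPKM and 1.15, 1.31 and 0.31 FPKM and was lower, with a log2 difference of -1.73, SE 0.16 (edgeR adjusted p = 2.25e-07).

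The counts by list stand beside 15.7% of all tested genes called higher, 15.4% lower and 31.1% in either direction. Among the 16 tested family members 9 were called (56.2%), 6 higher and 3 lower, which besides *Txnip* and *Gstt1* were *Gstm4* (0.93), *Msrb1* (0.83), *Gstm2* (0.74) and *Txnrd3* (0.74) above, and *Msra* (-1.28), *Msrb2* (-0.74) and *Sod3* (-0.67) below. Of 7 genes of cystine and glutathione transport and breakdown 5 were called (71.4%), where 1 was higher, *Ggct* (1.53), and 4 were lower, *Slc7a11* with *Chac1* (-1.03), *Chac2* (-0.76) and *Oplah* (-0.72). Of 8 NRF2 partners and repressors 3 were called (37.5%), where *Nfe2l1* was higher (0.71) and *Mafg* (-0.72) and *Bach2* (-0.61) were lower.

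Of 25 other NRF2 targets and NADPH suppliers 6 were called (24.0%, against 31.1% of all tested genes), where *Blvrb* (1.57), *Osgin1* (0.62) and *Idh2* (0.60) were higher, and *Akr1b8* (-1.15), *Me2* (-1.05) and *Abcc4* (-0.67) were lower. Of 11 selenoproteins and factors of their synthesis 4 were called (36.4%), where *Selenow* (1.54), *Pstk* (0.96) and *Selenop* (0.90) were higher and *Selenos* (-0.67) was lower. Some of these calls rested on 1 library. Without control replicate 3, *Nfe2l1* (0.52), *Idh2* (0.58), *Abcc4* (-0.58), *Bach2* (-0.44) and *Osgin1* (0.09) no longer passed, and *Osgin1* was also lost without control replicate 1 (0.53) or 2 (0.51). Without activated replicate 3, *Gstm2* (0.49), *Txnrd3* (0.57) and *Selenos* (-0.58) no longer passed. With the DESeq2 Wald test *Osgin1* and *Txnrd3* did not pass. With limma on log2(FPKM + 1) *Oplah* (-0.51), *Sod3* (-0.53), *Msrb2* (-0.56), *Bach2* (-0.18), *Txnrd3* (0.37) and *Osgin1* (0.38) did not pass, nor did *Bach2* (-0.48) and *Osgin1* (0.54) with log2(FPKM + 0.1).

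Other calls among the context genes were gained, and these genes are named after their values were seen. Without control replicate 3 *Gstm6* (0.60) and *Ftl1* (-0.61) passed, and without activated replicate 3 *Ephx1* (0.66) did. *Ggt6*, which the filter on low counts left out of the fit of all 6 libraries, was called higher with no filter (1.65), by DESeq2 (1.68), by limma on log2(FPKM + 0.1) (1.32) and with any library of replicates 1 and 2 left out (1.53 to 1.77). *Gstm3*, also left out by that filter, was called higher by limma on log2(FPKM + 0.1) (1.18).

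The promoters of the members were searched for the core of the antioxidant response element, TGACNNNGC, on both strands, in windows from 250 bases before to 50 bases after each RefSeq start (GRCm38.p6). Windows were held for 33 of the 38 listed genes, with no entry for *Gclc*, *Gsr*, *Gsta4*, *Hmox1* and *Prdx6*. The core occurred in 9 of these genes (27.3%), against 14.0% of 27025 genes with a window, and in 21.4% of the members' 42 windows against 12.4% of 32851 windows. A match gives the presence of these letters only. A match that lay before the start was found in 7 of the 33 genes (21.2%), against 11.5% of all genes with a window. These matches are shown as a description of those 7 promoters, each written 5′ to 3′ on the strand of its gene, with the core or its reverse complement in capitals. They lie at chr2:75704883-75704913 (minus strand) for *Nfe2l2*, chr3:122245411-122245443 (plus) for *Gclm*, chr4:116685454-116685486 (plus) for *Prdx1*, chr6:138140459-138140491 (plus) for *Mgst1*, chr10:82859102-82859134 (plus) for *Txnrd1*, chr16:90220694-90220726 (plus) for *Sod1* and chrX:74428917-74428949 (minus) for *G6pdx*. For *Mgst1*, *Txnrd1* and *G6pdx* the match lies before the start of its window but inside the annotated span of the gene.
Nfe2l2: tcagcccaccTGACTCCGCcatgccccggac
Gclm: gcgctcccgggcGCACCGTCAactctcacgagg
Prdx1: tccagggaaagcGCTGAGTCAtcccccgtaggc
Mgst1: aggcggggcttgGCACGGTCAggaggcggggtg
Txnrd1: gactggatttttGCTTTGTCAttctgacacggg
Sod1: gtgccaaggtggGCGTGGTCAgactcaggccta
G6pdx: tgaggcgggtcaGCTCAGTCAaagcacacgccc

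None of the 9 genes with a match was called between conditions by edgeR. No member at all was called on all 6 libraries, with or without the block, so that outcome tells nothing about the motif. *Nqo1* held no match in its window, but sequence outside the windows was not searched, so an element farther away would be missed. In replicate 3 *Srxn1* and *Pgd*, whose matches lie after the start, were lower. *Gclm*, *Txnrd1*, *Sod1* and *G6pdx* had edgeR adjusted p-values under 0.05 and missed only the fold threshold. *Prdx1* and *Nfe2l2* did not pass, and *Mgst1* was at the floor.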

How the data were processed

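RNA of 3 control and 3 *Thada*-activated MIN6 libraries was sequenced on a BGISEQ-500. The authors deposited estimated counts per gene, which are not normalised. They also deposited FPKM, scaled to transcript length and library size, and TPM, scaled to a fixed library sum. The submitters' processing notes name Bowtie2, RSEM and DESeq2 on GRCm38, and their roles, versions and use of strand are not given in the sources used here. The deposited gene table also holds the authors' log2 fold changes, p-values and q-values, which were not used. A single broken line (1 in all) was skipped.

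Estimated counts were rounded to whole numbers. Tests used R 4.3.3 and edgeR 4.0.16 (filterByExpr, TMM, robust glmQLFit, quasi-likelihood F-test, Benjamini-Hochberg over all 12516 tested genes). A gene was called at an adjusted p under 0.05 and a fold change over 1.5. The condition fit had no covariate, and the replicate number was added as a block in an alternative. Replicate 3 was compared with replicates 1 and 2 with condition as a covariate. DESeq2 1.42.0, limma 3.58.1 with a trend on log2(FPKM + 1) or log2(FPKM + 0.1), other count filters and normalisations, and leaving out each library were the other alternatives. FPKM was used to compare genes, and library depth and the detection floor of 3 counts are given with the results.

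Replicate numbers were checked for pairing by correlating, across 12089 genes, each library's difference from its condition mean. Same-numbered libraries gave 0.773, 0.763 and 0.903 for numbers 1, 2 and 3, while crossing 1 with 2 gave 0.798 and 0.793 and crossing either with 3 gave -0.847 to -0.831. The numbers thus set replicate 3 apart and did not tell 1 from 2.

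The members, role classes, context genes and marker lists were chosen with earlier results of these data known. Values in every library are given for the 6 strongest members, those at the floor or with the 4 lowest means, those called on all 6 libraries by edgeR in the condition fit, the blocked fit or the replicate 3 fit, the member with the largest condition difference in each class, and *Nfe2l2* and *Keap1*. Other members are given by ranges. Context genes are named when called in these fits or among the 3 with the largest condition difference without the block, and further ones of high level or at the floor were chosen after their values were seen. Promoter windows came from RefSeq (GRCm38.p6).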

Additional observations from a re-analysis of the deposited data

How the results depend on the processing

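For the condition effect over all genes, where the fit without a block called 0, the DESeq2 Wald test called 5 genes. The replicate block called 19 genes, or 28 with no fold threshold. Settings added after the data had been seen called 68 genes with replicates 1 and 2 only, 70 when the block was added to these, 18 with the block and the DESeq2 Wald test, 43 with the block and number 1 left out, and 18 with the block and number 2 left out. Among the members the block gave 1 gene without the fold threshold and 1 gene with number 2 left out, *Nqo1* in both, and with the fold threshold no other member was called between conditions under any setting run. In the fit without a block, the log2 fold change between conditions changed sign for 27 of 35 members when 1 library was left out. Leaving out 1 library makes the replicate numbers unequal between conditions, so condition and replicate 3 cannot be fully separated in those fits. The share of all tested genes that changed sign was not computed. None of the other redox genes was called with the fold threshold under the settings run, where DESeq2 and limma called 0. At an unadjusted p under 0.05, edgeR on all 6 libraries gave 0 of them, or 8 once the block was added. With the block 10.4% of all tested genes were at that p. With replicates 1 and 2 only, 8 were at that unadjusted p, beside 15.8% of all tested genes, and 2, *Ephx1* and *Chac1*, had an edgeR adjusted p under 0.05 (named after their values were seen). Without control replicate 3 there was 1 at that unadjusted p.

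For replicate 3, 3893 genes were called, 8592 with no fold threshold and 3648 to 4082 when each library was left out in turn. The members' 13 calls became 29 with no fold threshold and 10 to 14 with 1 library left out. The calls of *Gpx1*, *Srxn1* and *Gpx7* were lost, and those of *Gclm*, *Gsr* and *Gsto1* gained, under the settings given with their values. No called member reversed. Why these results moved with the settings was not tested. At 3 counts or fewer in a library, *Gpx3* and *Mgst1* lie where depth limits detection.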
